A study of Mus musculus with 10 samples.

Results

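Rab GTPases are the small G proteins that give each transport vesicle and organelle its address. The genes described here are those whose symbol is Rab followed by a number and at most a letter and a further digit, after the transcript identifiers of the count table were joined to GENCODE M39. All 59 such mouse genes were in the table, among 21098 genes. Of these, 29 had enough counts to be tested, 19 others drew between 3 and 94 counts over all 10 libraries, and 11 stood at 0.

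RNA was sequenced from the gastrocnemius (GAS), the large calf muscle, of 30-week-old wild-type male C57BL/6J mice with diet-induced obesity (DIO). All mice had eaten a high-fat diet from 9 weeks of age and for 9 weeks before treatment, and stayed on it during treatment. With the treatment, these times add up to slightly more than the labelled age of 30 weeks, a difference that the sources used here do not settle. The ASO group (5 mice) received subcutaneous injections of an anti-miR-22 antisense oligonucleotide with locked nucleic acid bases, RES-010, at 10 mg/kg once a week for 14 weeks, and the control group (CTRL, 5 mice) received saline. There was no oligonucleotide of another sequence among the groups compared, so an effect of miR-22 inhibition and one of carrying an oligonucleotide cannot be told apart. The question addressed is which transcripts of the muscle differ when miR-22 is blocked.

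A Rab protein cycles between an inactive form bound to GDP and an active form bound to GTP. Exchange factors switch it on, GTPase-activating proteins switch it off, effectors are the tethers and motors that the active form recruits, and GDP dissociation inhibitors carry the prenylated, inactive protein from membrane to membrane. In skeletal muscle, Rab proteins are best known for moving vesicles of the glucose transporter GLUT4 to the surface in response to insulin and contraction, and for the endosomal and autophagic steps that end in the lysosome.

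Because the oligonucleotide is directed at miR-22, the mature microRNA and matches to its seed in annotated 3′UTRs of Rab genes are shown first. A seed is the stretch from base 2 to base 8 of a microRNA that pairs with its targets. The mature miR-22-3p of RefSeq (GRCm38.p6) is printed with that stretch in capitals. Below it stand sites in the longest 3′UTR of protein-coding transcripts of 5 Rab genes, read from GRCm39 on the strand of the gene, in windows of 30 bases with the matching heptamer GGCAGCT in capitals. They were chosen because they cover 4 of the 6 Rab genes with a match that changed in level. The sites of Rab5b that carry an A next to the heptamer, a feature known to strengthen targeting, were added.
mmu-miR-22-3p: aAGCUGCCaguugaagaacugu
Rab7, chr6:87977158-87977187, minus strand: cagggctcctggGGCAGCTgcccgcctcgt
Rab1a, chr11:20174719-20174748, plus strand: tttcatgacgatGGCAGCTgagattaaaaa
Rab35, chr5:115784193-115784222, plus strand: tcccagctcgacGGCAGCTtccggaggagc
Rab6b (the first of its sites), chr9:103059254-103059283, plus strand: tggggtgcgcttGGCAGCTgagggctgagg
Rab5b, chr10:128514297-128514326, minus strand: gacagtagcagtGGCAGCTactcacaccca
Rab5b, chr10:128513900-128513929, minus strand: gtccaatgacagGGCAGCTagaactgaagg

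A match to GGCAGCT was present in the longest 3′UTR of 7 of the 29 tested Rab genes (24.1%), against 1690 of 7781 tested genes with a 3′UTR (21.7%). The same letters on the other strand, AGCTGCC, were in 5 of the 29 (17.2%) and in 24.4% of all. Rab5b held 3 matches, Rab6b and Rab18 held 2 each, and Rab1a, Rab7, Rab7b and Rab35 held 1 each. Of these 7 genes, 5 were lower with the ASO, Rab6b was higher and Rab5b did not pass the test, as set out below, where 17.4% of all tested genes were lower and 11.8% higher. All 5 lower genes had over 50% of their counts on segments at least 300 bp upstream of the most distal end, and 35.3% of all genes counted in that way were lower. A match is a description of letters and not a shown binding site. The sites of Rab7 and Rab7b lie inside segments that the table counts, and the others lie outside every segment. The table counts no microRNA, which left the level of miR-22 in these libraries not analysed here.

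The libraries differed in ways that bear on what follows. Total counts were between 1606909 and 2116720 in CTRL and between 2239186 and 2632560 with the ASO, so each ASO library was deeper than each CTRL library. The median log2 ratio of distal to upstream counts over 1261 genes was between -0.59 and 0.43 in CTRL and between 1.18 and 1.77 with the ASO, without overlap. Of the marker lists for other cell types, CTRL replicate 3 had the highest sum of 8 adipocyte markers (13950 CPM, against 725 to 3853 CPM in the 9 others) and of 9 macrophage markers (1834 CPM, against 79.1 to 686 CPM). Muscle fiber markers summed to 46510 to 89706 CPM in CTRL and 94840 to 154598 CPM with the ASO, and 4 of the 6 tested were higher (Ckm, Actn3, Mybpc2 and Atp2a1), while Mylpf and Tnnt3 were at 0 counts in all libraries. Of 7 tested macrophage markers 2 were lower (Mrc1 and C1qc), with Adgre1 and Cd163 at 0, and of 4 tested fibroblast markers Lum was lower, with Dcn at 0. No adipocyte (7 tested), endothelial (5), Schwann cell (3) or blood cell marker (4, with Alas2 at 0) passed the test in either direction. Beside these counts, 11.8% of all tested genes were higher and 17.4% lower, so the few calls in the macrophage and fibroblast lists do not show a difference in cell content. A marker at 0 counts is not thereby absent, since transcript ends listed more than once with the same coordinates drew 0 counts. Whether these markers are such cases was not examined. In whole muscle, fewer cells of a type and less RNA per cell cannot be told apart.

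Levels are given as CPM, which are counts scaled to a common library size, here with library sizes normalized by TMM, a method that aligns the bulk of genes between libraries. Gene-level tests are edgeR's quasi-likelihood test over 7813 genes, with p-values adjusted after Benjamini-Hochberg and a threshold of 0.05.

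With the ASO, 7 of the 29 tested Rab genes were lower (24.1%), 3 were higher (10.3%) and 19 did not pass the test. Over all tested genes, 17.4% were lower and 11.8% were higher. The genes that fell were Rab18, Rab35, Rab22a, Rab7b, Rab7, Rab1a and Rab14, and those that rose were Rab13, Rab24 and Rab6b. The groups did not overlap for 6 of the 7 genes below CTRL and for all 3 above it, where 13.4% and 7.97% of all genes showed such separation. The median log2 fold change was -0.11 over the 29 Rab genes and -0.03 over all tested genes. Without CTRL replicate 3, 6 Rab genes were lower and 2 were higher. Scaling by total counts, which moved the median of all genes to -0.20, gave 10 lower and 2 higher Rab genes with a median of -0.28, and 1813 lower and 540 higher genes in all, against 1363 and 920 with TMM. With the upper quartile, 5 Rab genes were lower and 5 higher, among 1206 and 1262 in all.

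**Figure D1:**
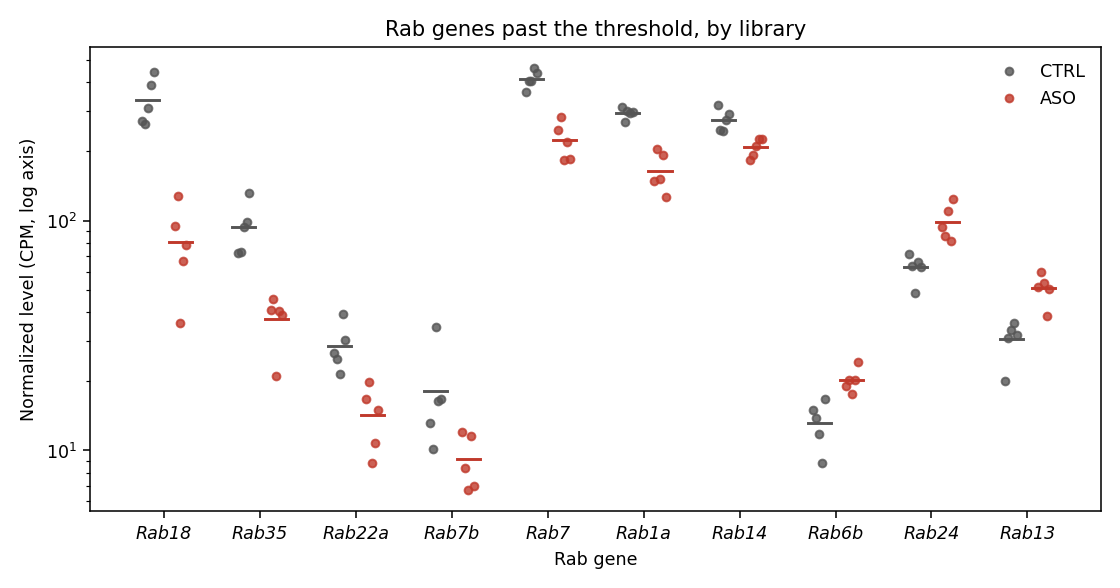
Normalized level in CPM (log axis) of the 10 Rab genes past the threshold, with 1 point per library, CTRL in grey and ASO in red, and bars at the group means. The groups are apart for each gene except Rab7b, and Rab18 spans the widest gap, from 263 CPM or more in CTRL to 128 CPM or less with the ASO.

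Rab18 works on lipid droplets and the endoplasmic reticulum, where it takes part in the storage and release of fat. It was at 271, 263, 307, 388 and 445 CPM in CTRL replicates 1 to 5 and at 94.4, 128, 35.7, 66.7 and 78.6 CPM in ASO replicates 1 to 5. Every ASO library was below every CTRL library, with the lowest level in ASO replicate 3. The difference was 4.15-fold, with a log2 fold change of -2.05 (SE 0.29, edgeR adjusted p = 0.000472), which placed Rab18 at percentile 2.37 among all genes tested. Segments at least 300 bp upstream of its most distal end held 97.8% of its counts, and the segment at that end held 2.19%. That distal segment drew 65 counts over the ASO libraries, which were deeper, and 26 over the CTRL libraries. It had too few counts for a test and did not share the fall, which thus describes the upstream segments.

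Among the Rab genes of traffic from the endoplasmic reticulum to the Golgi and within the Golgi, 6 of 13 were tested, of which 1 was lower and 1 was higher. The shares over all tested genes, 17.4% lower and 11.8% higher, stand beside this count and those of the role groups that follow. Rab1a, which governs the first step from the endoplasmic reticulum to the Golgi and the start of autophagosomes, was at 311, 268, 299, 295 and 297 CPM in CTRL replicates 1 to 5 and at 149, 204, 152, 192 and 127 CPM with the ASO. No ASO library reached the lowest CTRL library. Rab1a fell by 0.83 on the log2 scale (SE 0.15, edgeR adjusted p = 0.00167), or 1.78-fold. Its paralog Rab1b, with the same role, was at 582 ± 45.9 CPM in CTRL and 514 ± 47.3 CPM with the ASO (SD, n = 5), a log2 fold change of -0.18 whose 95% interval (from its SE) ran from -0.42 to 0.06. Rab1a was counted at 98.4% on an upstream segment, since its most distal segments are identical in 2 transcripts and drew no count, whereas Rab1b had 20.2% of its counts upstream.

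Rab6b, the Golgi Rab best known from neurons, was at 15, 13.9, 11.8, 8.78 and 16.7 CPM in CTRL and at 19.2, 20.2, 17.6, 20.3 and 24.3 CPM with the ASO. It was 1.53-fold higher (log2 fold change 0.61, SE 0.21, edgeR adjusted p = 0.0395). The call did not hold when single libraries were left out, since 7 of 10 such fits lost it, those without CTRL replicates 2, 3 or 4 or ASO replicates 1, 2, 4 or 5, with adjusted p up to 0.0928. Its paralog Rab6a has no base that belongs to it alone in the table and stood at 0. Of the others, Rab2a, which acts between the endoplasmic reticulum and the Golgi, was at 561 ± 105 CPM in CTRL and 733 ± 127 CPM with the ASO (edgeR adjusted p = 0.105). Rab33b and Rab30, both Golgi proteins, were at 10.0 ± 3.21 and 6.13 ± 2.30 CPM in CTRL and at 15.4 ± 4.92 and 6.47 ± 1.33 CPM with the ASO. Neither passed the test, with edgeR adjusted p-values of 0.129 and 0.893.

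On early endosomes, where internalized receptors are sorted, 5 of 8 Rab genes were tested and 1 was lower. Rab22a, which acts in endosome sorting and recycling, was at 26.7, 25, 21.6, 39.2 and 30.1 CPM in CTRL and at 16.8, 19.8, 8.81, 10.8 and 15 CPM with the ASO. The highest ASO library, at 19.8 CPM, was close to the lowest CTRL library, at 21.6 CPM. Its log2 fold change was -0.998 (SE 0.25, edgeR adjusted p = 0.00998). These counts rest on very little sequence, since 76.4% came from a segment of 35 bases that lies wholly in coding sequence (chr2:173542913-173542947, GRCm39) and the others from 28 unique bases close to the distal end. On the distal bases alone the log2 fold change of Rab22a was -0.49 (SE 0.42, edgeR adjusted p = 0.427).

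Rab5b, an early endosome Rab with 500 unique bases in the table, was at 163 ± 10.2 CPM in CTRL and 191 ± 26.2 CPM with the ASO (edgeR adjusted p = 0.195), while its paralogs Rab5a and Rab5c drew 8 and 24 counts in all. Rab5c has only 4 bases of its own in the table, and the segment of Rab5a has 279 and overlaps Pp2d1 on the other strand, so these counts do not rank the paralogs by expression. Rab21, which controls the uptake of integrins, was at 26.1 ± 5.70 and 36.3 ± 5.41 CPM (edgeR adjusted p = 0.0676). Rab31 and Rab20 had log2 fold changes of -0.11 (SE 0.38) and 0.18 (SE 0.30), both with wide intervals. Rab31 was highest in CTRL replicate 3, at 37.3 CPM, the library with the highest adipocyte and macrophage sums, and without that library its log2 fold change was 0.24 (edgeR adjusted p = 0.645).

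Endosome recycling, which returns receptors and transporters to the surface, had 5 of 7 genes tested and 1 lower. Rab35, which sends cargo from endosomes back to the plasma membrane, was at 72.1, 72.6, 93.6, 99.0 and 132 CPM in CTRL and at 40.7, 45.5, 21.0, 40.6 and 38.8 CPM with the ASO. The ASO libraries were all below CTRL, and ASO replicate 3 was again lowest. Rab35 fell by 1.33 on the log2 scale (SE 0.23, edgeR adjusted p = 0.00134), or 2.51-fold. The paralogs Rab11a and Rab11b, which mark the recycling endosome, were at 211 ± 17 and 161 ± 9.86 CPM in CTRL and at 181 ± 20.7 and 140 ± 24.8 CPM with the ASO. Their intervals of the log2 fold change ran from -0.47 to 0.02 and from -0.48 to 0.06. Rab4a, of the fast recycling route, was at 80.0 ± 18.2 and 93.3 ± 26.9 CPM (edgeR adjusted p = 0.459), and its paralog Rab4b, with 2 bases of its own in the table, stood at 0. Rab15 varied too much to be resolved, from 8.34 to 29 CPM in CTRL and from 1.92 to 52.2 CPM with the ASO.

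Of the 10 Rab genes of late endosomes, lysosomes and autophagosomes, 6 were tested, with 2 lower and 1 higher, where 17.4% and 11.8% of all genes were called. Rab7, which drives the maturation of late endosomes and the fusion of autophagosomes with lysosomes, was at 361, 405, 405, 459 and 439 CPM in CTRL and at 247, 281, 184, 219 and 186 CPM with the ASO. All ASO libraries were below all CTRL libraries. Rab7 fell by 0.89 on the log2 scale (SE 0.15, edgeR adjusted p = 0.00123), or 1.85-fold. Only 2 counts of Rab7 came from its most distal end, where 2 segments overlap except for 11 bases, and all others came from 3 segments at 337, 699 and 834 bp upstream.

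Rab7b, a paralog that acts between endosomes and the Golgi, was at 13.1, 10.2, 34.3, 16.4 and 16.7 CPM in CTRL and at 12, 8.43, 6.72, 11.6 and 7.02 CPM with the ASO. The groups overlapped, and CTRL replicate 3 stood far above the other CTRL libraries. The log2 fold change of Rab7b was -0.98 (SE 0.33, edgeR adjusted p = 0.0426), and without CTRL replicate 3 it was -0.62 with an adjusted p of 0.114, so the call rests on that library and others. The call was also lost without CTRL replicates 4 or 5 or ASO replicates 1, 2, 3 or 5, and over the 10 such fits the adjusted p was between 0.0228 and 0.114. The part of the adipocyte and macrophage content of CTRL replicate 3 in this result was not tested.

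Rab24, an atypical Rab linked to autophagy, was at 71.6, 63.4, 48.5, 66.2 and 63.0 CPM in CTRL and at 93.9, 85.6, 110, 81.6 and 124 CPM with the ASO. Each ASO library was above each CTRL library. Rab24 was 1.58-fold higher (log2 fold change 0.66, SE 0.16, edgeR adjusted p = 0.00765). Its counts came from 1 segment of 265 bp ending 5 bp from the most distal end, of which 164 bp are coding. Rab12, which acts in the degradation of recycling receptors, was at 522 ± 66.2 and 603 ± 113 CPM (edgeR adjusted p = 0.357). Rab9, of the route from late endosomes to the Golgi, and Rab29, linked to the kinase Lrrk2, were at 85.5 ± 14.7 and 14.2 ± 5.51 CPM in CTRL and at 74.8 ± 4.41 and 11.5 ± 3.13 CPM with the ASO, with edgeR adjusted p-values of 0.321 and 0.446.

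Exocytosis and delivery to the surface includes the Rab proteins of the GLUT4 route, of which 4 of 6 were tested, with 1 higher and 1 lower. Rab13, which acts at cell junctions and downstream of insulin in muscle cells, was at 20.1, 31.0, 33.3, 35.7 and 31.8 CPM in CTRL and at 51.3, 59.9, 53.3, 38.5 and 50.5 CPM with the ASO. The lowest ASO library, at 38.5 CPM, was above the highest CTRL library, at 35.7 CPM. Rab13 was 1.67-fold higher (log2 fold change 0.74, SE 0.18, edgeR adjusted p = 0.0084), the largest rise among the tested Rab genes, and kept its call in each of the 21 other fits. It was also the only Rab gene to rise with most of its counts, 95.6%, on an upstream segment.

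Rab14, of the trans-Golgi network and GLUT4 sorting, was at 318, 247, 246, 273 and 292 CPM in CTRL and at 184, 193, 211, 227 and 226 CPM with the ASO. The groups were apart, but by a small margin. Its log2 fold change was -0.40 (SE 0.13, edgeR adjusted p = 0.0317), and 7 of 10 fits without a single library lost the call, those without CTRL replicates 1, 4 or 5 or ASO replicates 1, 2, 3 or 5, with adjusted p up to 0.0951. Rab10, the Rab that Tbc1d4 holds inactive in insulin-responsive cells, was at 515, 590, 342, 402 and 396 CPM in CTRL and at 668, 744, 718, 475 and 564 CPM with the ASO. The groups overlapped in Rab10, with a log2 fold change of 0.50 (SE 0.18) and an edgeR adjusted p of 0.057. It passed the threshold with DESeq2 at an adjusted p of 0.027 and without CTRL replicate 2 or ASO replicate 4. Rab8b was at 31.3 ± 7.90 and 28.1 ± 7.92 CPM, and its paralog Rab8a, a main Rab of GLUT4 traffic in muscle cells, drew 23 counts in all and was not tested.

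Of the remaining tested genes, Rab32, found on lysosome-related organelles and mitochondria, was at 2.81, 16.2, 52.0, 11.1 and 10.6 CPM in CTRL and at 13.4, 11.8, 13.4, 11.2 and 2.34 CPM with the ASO. Its groups overlapped widely, with an edgeR adjusted p of 0.336. The highest Rab32 library was CTRL replicate 3, which had the highest macrophage, adipocyte and fibroblast marker sums (1834, 13950 and 485 CPM). The lowest was ASO replicate 5, which had the lowest sums of the same lists (79.1, 725 and 70.2 CPM). These cell types cannot be told apart here. Without CTRL replicate 3 the log2 fold change of Rab32 was 0.0391. Its paralog Rab38 was not tested, with 33 of its 61 counts in CTRL replicate 3. Rab40b, a substrate adaptor of ubiquitin ligases, was at 43.3 ± 11.2 and 44.1 ± 13.1 CPM.

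Of the genes without a test, the 9 Rabs of regulated secretion in nerve, gland and blood cells were all below the filter. Rab3d, with 94 counts in all, was the highest of them, and 27 of these counts were in CTRL replicate 3. Rab3a, Rab3c, Rab37 and Rab44 were at 0, whereas Rab3b, Rab26, Rab27a and Rab27b drew 3, 5, 5 and 11 counts. The other Rab genes at 0 were Rab4b, Rab6a, Rab17, Rab25, Rab28, Rab34 and Rab40c. Of the 11 at 0, Rab6a, Rab28, Rab37 and Rab40c have no base of their own in the table, and Rab4b, Rab17, Rab34, Rab44 and Rab3a have between 2 and 13, so the 0 of these 9 genes says nothing about expression. Rab25 and Rab3c have 214 and 1290 bases of their own, and a count of 0 there allows up to about 3 expected counts over the 10 libraries together. Rab2b drew 37 counts, Rab43 17, Rab36 14 and Rab19 10, and Rab9b, Rab23, Rab33a, Rab39, Rab39b and Rab42 had between 3 and 5.

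**Figure D2:**
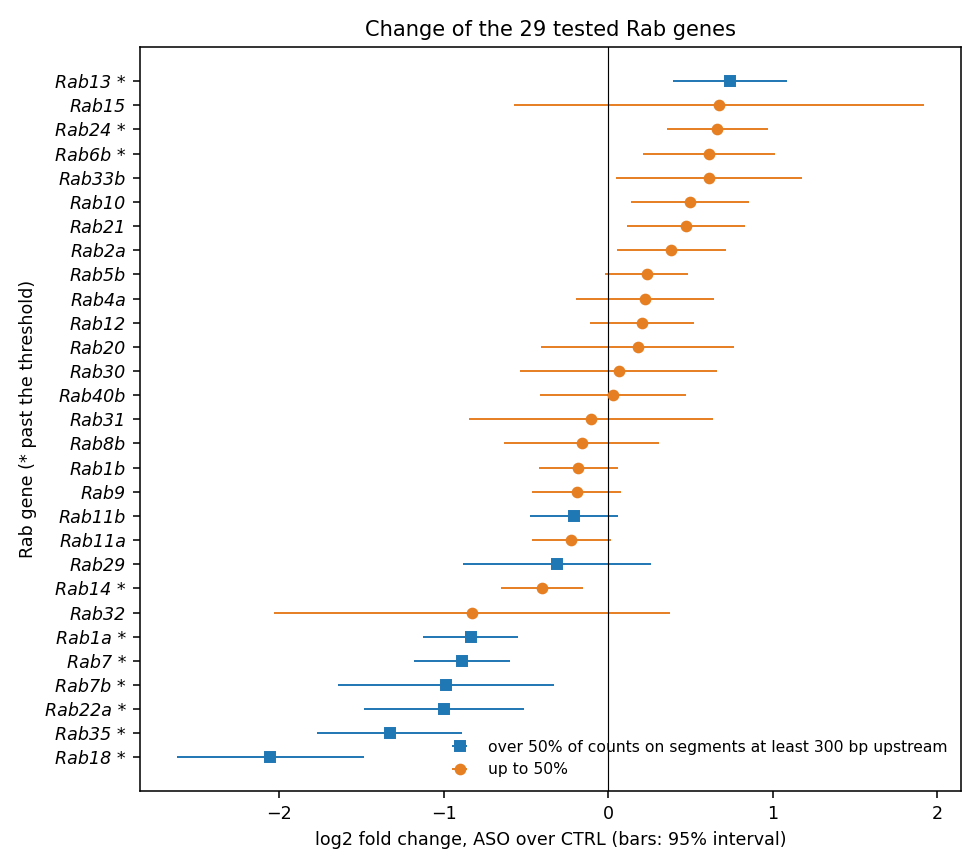
Log2 fold change of ASO over CTRL for the 29 tested Rab genes, with bars of 95% intervals from the SE and stars at genes past the threshold. Squares are genes with over 50% of their counts on segments at least 300 bp upstream of the most distal end, and circles are the others. Of the 9 squares, 6 are called lower and 1 higher.

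Levels between Rab genes can be compared only per length, here as CPM of the main segment per kb of its unique bases, for genes with at least 150 such bases. This divisor leaves out bases shared with another segment, whereas counts on such bases can be included. Unique bases are 188 of 500 bp in Rab7, 167 of 265 bp in Rab24 and 302 of 386 bp in Rab13. Their levels may thus be too high, and their places are not settled. In CTRL the highest on this measure were Rab7 (1255 ± 58.0 CPM per kb), Rab2a (1122 ± 211), Rab12 (1045 ± 132), Rab10 (898 ± 202) and Rab1b (832 ± 56.5), and neighbours in this order lay within 1 SD of each other. Below them came Rab1a (581 ± 29.6), clearly apart from Rab1b, and then Rab24 (374 ± 51.2), Rab18 (364 ± 65.2), Rab5b (326 ± 20.5) and Rab14 (325 ± 73.9), which overlapped. The order was not the same with the ASO, where Rab2a (1466 ± 254 CPM per kb), Rab10 (1268 ± 225) and Rab12 (1206 ± 225) were above Rab1b (901 ± 71.4) and Rab7 (900 ± 107). Rab18 stood at 107 ± 46.1 CPM per kb with the ASO, between Rab13 (160 ± 23.0) and Rab40b (88.3 ± 26.2). At the low end of the tested genes, Rab30 was at 12.3 CPM per kb in both groups. No test was made on this order.

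**Figure D3:**
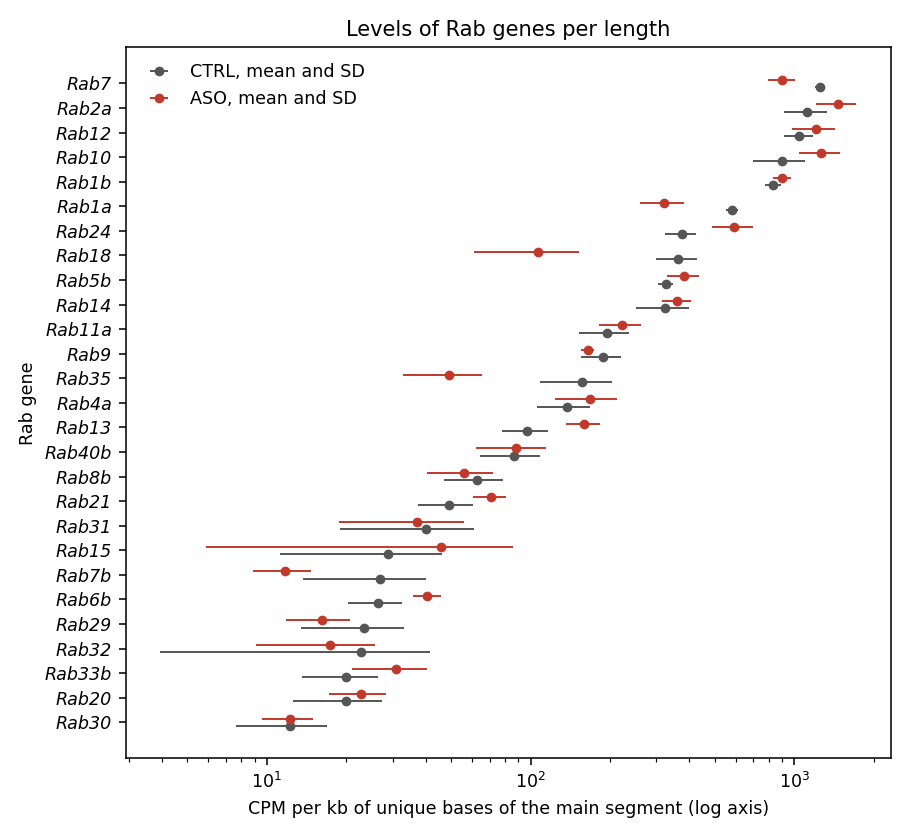
Level of each tested Rab gene in CPM per kb of unique bases of its main segment (log axis), as mean and SD over 5 libraries, with CTRL in grey and ASO in red. Genes with fewer than 150 unique bases there (Rab22a and Rab11b) are left out. On this measure Rab7 is highest in CTRL at 1255 and Rab2a with the ASO at 1466. The value of Rab7 may be too high, since 188 of the 500 bp of its segment are unique.

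The table counts each gene on segments, which are the last bases, up to 500, of the annotated 3′UTR of each transcript. A gene with several annotated ends has several segments, and the most distal one ends farthest downstream. The segments of a Rab gene did not move together. Of 44 Rab segments tested one by one, the 22 that end within 50 bp of the most distal end included 4 higher and 0 lower, with a median log2 fold change of 0.23. The 22 segments at least 300 bp upstream included 2 higher and 16 lower, with a median of -1.16. Over all 10652 tested segments, 16.0% were higher and 24.7% were lower, and the same split was present over all genes. Of 5403 segments near a distal end, 1352 were higher and 251 lower (median 0.30), and of 4863 upstream ones, 302 were higher and 2331 lower (median -0.67). The 4 Rab segments that were higher near the distal end were those of Rab10 (log2 fold change 0.54), Rab21 (0.57), Rab24 (0.71) and Rab6b (0.65), and the 2 upstream were in Rab13 (0.76) and Rab11b (0.93).

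**Figure D4:**
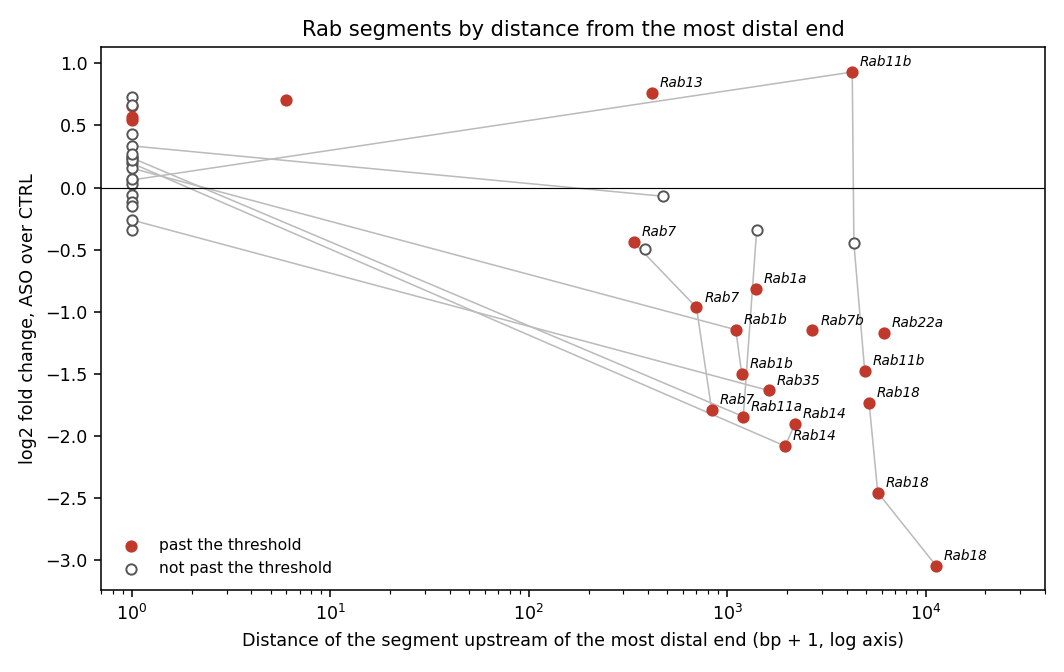
Log2 fold change of ASO over CTRL for the 44 tested Rab segments against the distance of their end upstream of the most distal end of the gene (bp + 1, log axis). Filled points passed the threshold and lines join segments of a gene. Segments near the distal end lie between -0.34 and 0.73, and the lowest, of Rab18 at 11277 bp, is at -3.04.

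The annotation under these segments also differed. All 22 segments near the distal end belong to protein-coding transcripts, 3 of them with some coding bases. Of the 22 upstream, 15 overlap coding sequence, 5 belong to transcripts annotated for nonsense-mediated decay and 3 hold bases outside the exons of protein-coding transcripts. The Rab18 segment with the largest fall, 11277 bp upstream, has 467 of its 500 bp outside such exons, and Rab29 has 341 of 500 bp outside them on the segment that holds most of its counts. A poly(A) signal hexamer, AATAAA or ATTAAA, stood in the last 50 bases of 18 of the 22 Rab segments near the distal end (81.8%, against 83.4% of all such segments). It was there in 4 of the 22 upstream (18.2%, against 28.3%). The heptamer GGCAGCT was in 3 of the 44 Rab segments (6.82%) and in 4.92% of all tested segments, and all 3 were upstream. They belong to Rab7b and to overlapping segments of Rab7 that share the same site, so the Rab share counts that site more than once.

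Within single genes the unequal change could be tested directly, for 8 Rab genes with several counted segments. Segments changed unequally in 7 of them, namely Rab14, Rab11b, Rab1b, Rab11a, Rab7, Rab35 and Rab18, with edgeR adjusted p-values from 1.67e-09 to 0.0323. Rab4a did not pass (adjusted p = 0.29). This test called 67.2% of the 2272 genes with several counted segments, so such a change was common in the table. In Rab11b, segments moved in opposite directions. Its segment at 4266 bp was at 61.3, 45.6, 46.7, 45.1 and 41.7 CPM in CTRL and at 84.6, 72.5, 145, 68.0 and 88.0 CPM with the ASO, whereas its segment at 4930 bp was at 75.4, 83.0, 89.1, 109 and 89.6 CPM in CTRL and at 38.3, 43.6, 29.3, 29.7 and 18.9 CPM with the ASO. Both were apart between groups, in opposite directions (log2 fold changes of 0.93 and -1.48), and the sum over the gene did not pass the test. The first of these has 83 unique bases, since most of it overlaps the neighbouring segment.

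In Rab14 the distal segment was at 220, 161, 134, 147 and 138 CPM in CTRL and at 157, 155, 200, 199 and 205 CPM with the ASO, which overlapped (log2 fold change 0.19, edgeR adjusted p = 0.381). Its segment of 164 bp at 2196 bp upstream was at 50.3, 48.7, 62.3, 66.5 and 97.3 CPM in CTRL and at 14.8, 21.8, 12.7, 21.7 and 15.6 CPM with the ASO. The other upstream segment, of 107 bp at 1958 bp, was at 40.2, 31.6, 47.7, 56.7 and 55.6 CPM in CTRL and at 11.5, 15.1, 7.44, 12.7 and 7.57 CPM with the ASO. Both upstream segments of Rab14 were lower without overlap, with log2 fold changes of -1.90 and -2.08 (edgeR adjusted p = 7.99e-05 and 6.86e-05). Rab35 had the same pattern, with its distal segment between 11.7 and 22.9 CPM in CTRL and between 10.1 and 15.7 CPM with the ASO, and its upstream segment between 58.1 and 117 CPM in CTRL and between 11.8 and 33.5 CPM with the ASO. For Rab7, whose distal end drew 2 counts in all, the 3 segments at 337, 699 and 834 bp upstream had log2 fold changes of -0.44, -0.97 and -1.79, all past the threshold. The Rab7 segment at 699 bp has no base of its own and lies wholly under its neighbours, so these segments are not separate measures. The Rab1b gene, which was not called as a whole, had a distal segment at 0.15 and upstream segments at -1.14 and -1.50.

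The share of a gene's counts on its most distal counted segment was higher with the ASO in each library for Rab1b, Rab7, Rab11a, Rab14, Rab35 and Rab18, without overlap. The median share was 71.9% in CTRL and 86.9% with the ASO in Rab1b, 56.2% and 75.6% in Rab7, and 45.4% and 59.2% in Rab11a. In Rab14 the shares were 70.8, 66.7, 54.9, 54.4 and 47.4% in CTRL and 85.6, 80.7, 90.8, 85.2 and 89.9% with the ASO. In Rab35 they were 17.5, 16.6, 24.6, 16.6 and 11.0% in CTRL and 31.8, 25.9, 46.0, 37.8 and 36.1% with the ASO. ASO replicate 3, which had the highest distal-over-upstream ratio of all libraries at 1.77, also had the highest share in Rab14, Rab35 and, at 22.4%, Rab18. The groups overlapped in Rab4a (medians 80.0% and 84.7%) and Rab11b (3.68% and 5.84%). Outside the genes tested for unequal change, they also overlapped in Rab1a (1.03% and 2.59%), Rab22a (18.2% and 23.1%), Rab29 (16.7% and 27.3%) and Rab32 (74.3% and 85.7%). No p-value was computed for these shares, and the part of RNA integrity and of library preparation in them was not tested.

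**Figure D5:**
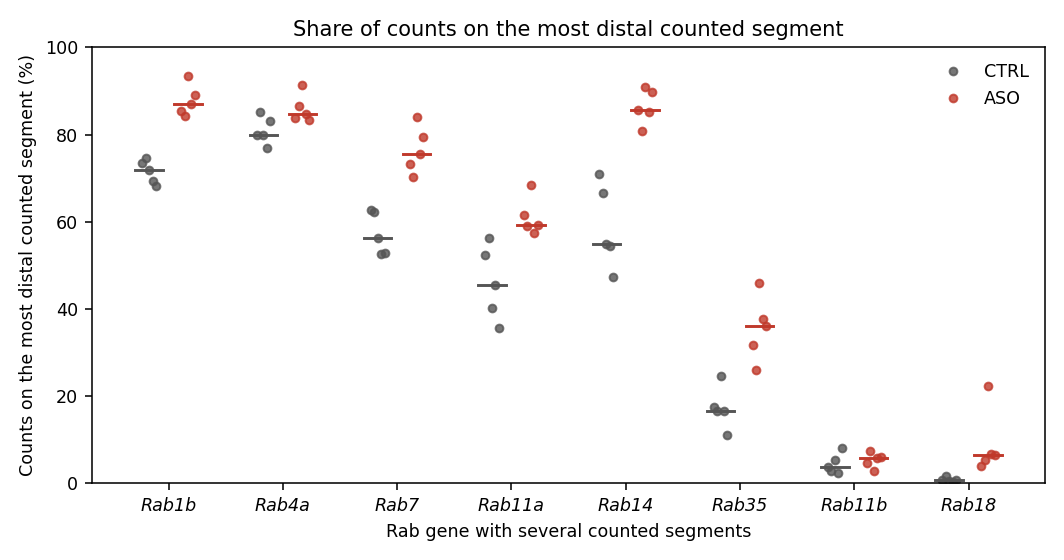
Share of a gene's counts on its most distal counted segment, in percent, for the 8 Rab genes tested for unequal change, with 1 point per library, CTRL in grey and ASO in red, and bars at the medians. The groups are apart in 6 genes and overlap in Rab4a and Rab11b, and Rab14 goes from a median of 54.9% to 85.6%.

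Tested on the most distal segment alone, over 5087 genes, 0 of 21 Rab genes passed the threshold in edgeR, where 4.54% of all genes were higher and 6.59% lower. At an unadjusted p under 0.05 there were 2, limma-voom called 0 and DESeq2 called 1. Rab35 then had a log2 fold change of -0.60 (SE 0.25, edgeR adjusted p = 0.138) and Rab14 one of -0.13 (adjusted p = 0.573). Rab9 was closest to the threshold at -0.49 (adjusted p = 0.0521). Among the called genes, Rab18, Rab22a, Rab7, Rab7b, Rab1a, Rab13 and Rab24 had too few counts on that segment to be tested. On the most distal segment whose mean was 10 counts or more per library, Rab13 and Rab24 were higher and Rab18, Rab7, Rab7b and Rab1a were lower (9.20% and 13.6% of 7455 genes), but for all of these except Rab24 that segment was itself upstream. This scale differs from the gene-level one, since Rab genes with a single segment and thus the same counts shifted by a median of -0.29 between the fits.

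A split by where a gene was counted was also present at gene level, with medians closer together than those of the segments. Of 9 tested Rab genes with over 50% of their counts at least 300 bp upstream, 6 were lower and 1 was higher (median -0.89), and over all 2774 such genes 35.3% were lower and 5.66% higher (median -0.39). Of the 20 Rab genes counted mainly near the distal end, 1 was lower (Rab14) and 2 were higher (Rab24 and Rab6b), with a median of 0.19, against 7.62% lower, 15.1% higher and a median of 0.11 over 5039 such genes.

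The genes that switch and read Rab proteins were followed on lists written for this purpose. Of the GTPase-activating proteins, which switch Rabs off, 26 of 40 were tested, with 6 lower and 1 higher (median -0.17, where 17.4% and 11.8% of all genes were called). The lowest adjusted p was that of Tbc1d4, also called AS160, which restrains GLUT4 traffic until insulin signalling releases Rab10 and its relatives. It was at 75.6 ± 10.7 CPM in CTRL and 16.1 ± 3.16 CPM with the ASO, 4.70-fold lower (log2 fold change -2.23, SE 0.17, edgeR adjusted p = 7.56e-05), with 97.1% of its counts upstream. Tbc1d14, a regulator of recycling endosomes in autophagy, fell by 3.19 on the log2 scale, and Tbc1d19, Tbc1d8b and Tbc1d24 by 1.09, 1.58 and 1.42. Tbck was higher, at 18.1 ± 4.02 and 28.7 ± 4.01 CPM. Tbc1d8b differed from the other falling members in that none of its counts were upstream.

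Exchange factors, which switch Rabs on, had 31 of 58 tested, with 9 lower and 4 higher (median -0.08). These were 29% and 12.9%, where 17.4% and 11.8% of all genes were called. Ccz1, a part of the complex that activates Rab7, was at 73.5 ± 6.95 CPM in CTRL and 125 ± 21.0 CPM with the ASO (1.70-fold higher, edgeR adjusted p = 0.00234), with no count upstream. Rmc1, another subunit of the same complex, fell by 1.37 on the log2 scale with 97.9% of its counts upstream. Mon1a, also of this complex, was 1.58-fold higher (edgeR adjusted p = 0.00502) with no count upstream. Its paralog Mon1b did not pass the test (edgeR adjusted p = 0.201). Dennd4b, of the DENN domain family that includes exchange factors for Rab10 and Rab35, was at 105 ± 42.3 and 12.4 ± 5.24 CPM, 8.46-fold lower, with its main segment 5025 bp upstream. Dennd10, Ankrd27 (which activates Rab21 and binds Rab32 and Rab38) and Trappc4 (of the TRAPP complex that activates Rab1) fell by 2.65, 1.54 and 1.24.

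Of the 88 effectors and tethers, 49 were tested, with 16 lower and 9 higher (median -0.15). These were 32.7% and 18.4%, against 17.4% and 11.8% of all genes. Rufy3, which links Arl8 on lysosomes to the motor dynein, was at 22.7 ± 2.57 and 44.6 ± 8.11 CPM, 1.97-fold higher (edgeR adjusted p = 0.00129), and Rph3al, an effector of secretory Rabs, was 1.91-fold higher. Erc1, Wdr44 (a Rab11 effector), Gcc2 (a Golgi tether) and Vps33a (of the tether that acts with Rab7) fell by 2.64, 3.14, 1.38 and 0.73. Vps33a was counted at 13.4% upstream, against 98.2% or more in the other 3.

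GDP dissociation, prenylation and membrane delivery had 9 of 16 tested, with 2 lower (22.2%, against 17.4% of all genes) and 0 higher (11.8% of all genes, median -0.02). These were Rabggtb, the catalytic subunit that attaches the geranylgeranyl lipid to Rabs (135 ± 16.2 and 87.3 ± 18 CPM), and Yipf4 (27.9 ± 4.56 and 16.5 ± 4.34 CPM), counted at 100% and 97.9% upstream. Of 4 tested genes among the kinases, phosphatase and their partners, Ppm1j was higher, at 63.3 ± 14.2 and 127 ± 30.1 CPM, and Stk3 and Vps35 were lower, by 1.58 and 0.48. In this very short list 25% were higher and 50% lower, against 11.8% and 17.4% of all genes. Of 16 tested Rab-like and related GTPases, 5 were lower (31.2%) and 2 higher (12.5%), with a median of -0.30. Arl8b, which moves lysosomes outward, was at 192 ± 46.3 and 69.1 ± 15.6 CPM, with 83.1% of its counts upstream and log2 fold changes of 0.0864 on its most distal segment and 0.21 on its most distal counted one (adjusted p = 0.82 and 0.499). Arl5b, Arf6 and Arf4 fell by 3.73, 0.75 and 1.84, while Arf5 and Rabl6 rose by 0.67 and 0.84.

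For single Rab genes, an exact permutation test, two-sided, of the difference in mean log2(CPM + 1) under every labelling of the libraries gave p = 0.00794 for Rab18, Rab35, Rab22a, Rab7, Rab1a, Rab14, Rab13, Rab24 and Rab6b, the smallest value that 5 against 5 libraries allow. Groups that do not overlap always give this value, and 21.4% of all tested genes had such groups, so it adds nothing to the separation given above. Rab7b had an exact permutation p of 0.0317, the same as Rab21, which was not called. Rab10 and Rab11a, also not called, had an exact permutation p of 0.0397.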

How the data were processed

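The authors deposited unnormalized counts, made from stranded poly(A) libraries sequenced as read pairs. Per the study's methods, reads were trimmed with fastp, aligned to GRCm39 with STAR and counted with featureCounts on the last 500 bp of annotated 3′UTRs, with no strand option named. The deposited table lists 52423 segments of at most 500 bp, and 52361 were joined to GENCODE M39, while the 62 others hold 0.0197% of the counts and were left out. The 11523 segments with the coordinates of another hold 0 counts. The study's methods do not state how read pairs in partly overlapping segments were assigned. The Rab7 segment at 699 bp, without a base of its own, holds 288 counts. A further 4 per-sample columns of the table belong to none of the libraries described and were not used. Total counts per library are given with the results, and limits from a count of 0, taken as 3 counts, cover counting error only.

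Segments were summed per gene and tested with edgeR 4.0.16 in R 4.3.3 on 5 ASO and 5 CTRL libraries, with TMM normalization, edgeR's filter on low counts, the quasi-likelihood test, Benjamini-Hochberg adjustment over all genes tested and a threshold of 0.05. Errors are SDs over 5 mice unless named SE. The most distal segment, each segment alone and unequal change within genes (diffSpliceDGE) were fitted in the same way, each over the whole table. The alternatives were normalization by RLE, by the upper quartile or by total counts, DESeq2 1.42.0, limma-voom in limma 3.58.1, no filter, at least 10 counts in every library, the replicate number as a block, each library left out, libraries drawn down to the smallest total, and the main or most distal segment in place of the sum. The most distal segment whose mean was 10 counts or more was chosen after seeing the data. The distal-over-upstream ratio uses segments with at least 200 unique bp and 1000 bp apart and genes with at least 50 counts on each side, with 0.5 added to each count. The exact test adds 1 to each CPM.

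The Rab genes, their roles, the pathway lists and the marker lists were chosen with earlier results of these data known. Every Rab gene is accounted for, those past the threshold with the value of each library, and up to 6 genes with the lowest adjusted p are named in each pathway list. Mon1a and Mon1b are named in addition, beside Ccz1 and Rmc1, and were not followed in the alternative fits. Rab11b, Rab1b, Rab7 and Rab35 segments and Rab38 are described with values that were seen first. Protein sequences were not used here. The tests were checked on simulated data with known changes. Other steps used Python 3.11.15, numpy 2.4.6, pandas 2.3.3 and matplotlib 3.10.9. Coordinates are 1-based.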

Additional observations from a re-analysis of the deposited data

Results flagged for a closer look

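In 58 groups of 5 libraries, 29 Rab genes in both groups, 5 had a library that stood apart from the other 4 beyond the 95% limit of Dixon's test. By chance about 1 in 20 groups is flagged in this way. Rab7b was at 34.3 CPM in CTRL replicate 3, against 10.2 to 16.7 CPM in the other CTRL libraries. Rab32 was at 52.0 CPM in the same library, against 2.81 to 16.2 CPM. That library had adipocyte, macrophage and fibroblast marker sums of 13950, 1834 and 485 CPM, the highest of the 10, and their part in both values was not tested.

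Rab32 was at 2.34 CPM in ASO replicate 5, against 11.2 to 13.4 CPM in the other ASO libraries. The macrophage, adipocyte and fibroblast marker sums of this library were the lowest, at 79.1, 725 and 70.2 CPM. Rab35 was at 21.0 CPM in ASO replicate 3, against 38.8 to 45.5 CPM, in the library with the highest distal-over-upstream ratio (1.77). Rab5b was at 146 CPM in ASO replicate 4, against 194 to 210 CPM, and this library had the highest sum of Schwann cell and nerve markers, at 561 CPM, and the lowest sum of muscle fiber markers among the ASO libraries, at 94840 CPM.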

How the results depend on the processing

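Rab18, Rab7, Rab1a, Rab13 and Rab24 kept their direction and call in each fit that could test them. The edgeR fit on the most distal segment could test none of these genes. In Rab18 the few counts on that segment, 65 with the ASO and 26 in CTRL, did not share the fall. Most counts stayed within 1.5 times of those reported, with these exceptions. By total counts, 540 genes were higher in all. By upper quartile, 5 Rab genes were higher. DESeq2 called 11 GTPase-activating proteins. Total counts, DESeq2, at least 10 counts in every library and libraries drawn down each gave 1 Rab distal segment past the threshold in place of 0. On the most distal segment only, 0 Rab genes were higher and 0 lower, 231 and 335 genes were higher and lower in all, and 0 genes of GDP dissociation, 2 exchange factors, 1 GTPase-activating protein, 6 effectors and 3 Rab-like genes passed. The main segment gave 1 gene of GDP dissociation. The most distal counted segment gave 4 lower Rab genes, 1 gene of GDP dissociation, 4 GTPase-activating proteins and 16 effectors. Smaller numbers of genes were tested on distal segments.

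Directions turned as follows, for called genes only in Arl8b and Rab14. By total counts, Rab30 was at -0.11 and Rab40b at -0.13, and with libraries drawn down Rab30 was at -0.0347. On the most distal segment, Rab5b was at -0.0547, Rab12 at -0.0757, Rab20 at -0.098, Rab30 at -0.30, Rab40b at -0.25 and Arl8b at 0.0864. On the main segment, Rab11a was at 0.0775, Rab11b at 0.76 (past the threshold, adjusted p = 0.014), Rab14 at 0.0347, Rab30 at -0.13 and Rab40b at -0.0896. On the most distal counted segment, Rab11a was at 0.0355, Rab30 at -0.17, Rab40b at -0.12 and Arl8b at 0.21. Rab5b, Rab12, Rab20, Rab30 and Rab40b are counted wholly or nearly so on 1 segment, and single-segment Rab genes shifted by a median of -0.29 on the most distal scale, with the same counts. For the others the cause was not tested.

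Without each library in turn, 2 to 4 Rab genes were higher and 5 to 7 lower, with a median between -0.18 and 0.02, and 692 to 1021 and 1126 to 1369 genes were higher and lower in all. The lists had 1 to 2 (GDP dissociation), 9 to 14 (exchange factors), 5 to 9 (GTPase-activating proteins), 19 to 28 (effectors), 2 to 3 (kinases) and 5 to 8 (Rab-like genes) past the threshold, with 0 to 1 Rab distal segment and 6 to 8 genes with unequal segments. Directions turned in Rab30 (-0.10 to 0.21), Rab31 (-0.43 to 0.24), Rab32 (-1.11 to 0.0391), Rab40b (-0.13 to 0.17) and Rab8b (-0.25 to 0.0109). Calls were lost for Tbck without CTRL replicates 4 or 5, Vps35 without ASO replicates 1, 3 or 5, Arf4 without ASO replicates 2 or 3 and Yipf4 without ASO replicates 3 or 5, with adjusted p up to 0.0708.

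Replicate numbers are shared between groups, and the labels name no pairing. Same-numbered libraries did not deviate together (correlations of -0.43, 0.06, 0.05, 0.06 and 0.16), which cannot exclude a shared batch. With the replicate block, 2 Rab genes were higher and 5 lower, with 662 and 1172 in all. Rab6b, Rab7b and Rab14 lost their call under the block, which changed no other call of a named gene followed in these fits. At these depths, Rab genes under a few counts per library could not be tested.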
